A study of Mus musculus with 24 samples.

Results

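The genes described here encode the subunits of the mitochondrial respiratory chain and of the ATP synthase. They were taken from the table by symbol: the Nduf genes of complex I, Sdha to Sdhd of complex II, the Uqcr genes and Cyc1 of complex III, cytochrome c (Cycs), Cox4 to Cox8 of complex IV, the Atp5 genes, and the protein-coding genes of the mitochondrial genome. Of 47643 gene symbols 107 matched, after 4 pseudogene symbols ending in -ps were left out. By symbol, 38 belonged to complex I, 4 to complex II, 9 to complex III, 1 to cytochrome c, 18 to complex IV, 17 to the ATP synthase and 13 to the mitochondrial genome. The other 7 were Ndufaf genes, which encode assembly factors of complex I and are no subunits. Symbols are not always roles: Ndufa4 and its paralogue Ndufa4l2 are counted with complex I, although Ndufa4 is known as a complex IV subunit, and Atp5sl with the ATP synthase, although it is known as an assembly component of complex I.

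Male C57BL/6J mice, 4 months old, gave RNA from 3 brain regions: neocortex, hippocampus and cerebellum. The LLC groups had received LLC cells, which grew for up to about 3 weeks, and the control groups a mock injection. LLC usually denotes Lewis lung carcinoma, which the labels do not spell out, and the series title names melanoma. Each of the 6 groups held 4 libraries, numbered 1 to 4 for LLC and 14 to 17 for control, which the labels call biological replicates. No label ties a number to an animal. Values are TPM, levels per transcript length with 1 common total for all libraries, so that depth is unknown and a gene that takes more of the total lowers all the others.

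Complexes I and II pass electrons from NADH and succinate to ubiquinone, complex III passes them on to cytochrome c, and complex IV to oxygen. Complexes I, III and IV pump protons, and the ATP synthase uses the gradient to make ATP. Complex II is encoded wholly in the nucleus, while the other complexes combine nuclear subunits with subunits encoded by the mitochondrial genome. Neurons depend on this pathway for most of their ATP. Several complex IV subunits exist as a widely expressed form and a second form known from heart, muscle, testis or other restricted tissues.

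Some libraries stood apart. In cerebellar LLC replicate 1 the cerebellar neuron markers differed from the control mean by -0.87 on average (log2(TPM + 1)), against -0.11 to 0.01 in the other 3 cerebellar LLC libraries. In the same library neocortical neuron markers averaged 0.60, myelin markers 0.46 and pan-neuronal markers 0.28. The other cerebellar LLC libraries lay at -0.17 to 0.003, -0.50 to -0.02 and -0.19 to -0.06. LLC replicate 4 of each region showed the weakest rise of the erythrocyte markers, on average 1.05 to 1.10, against 2.06 to 2.57 in the other LLC libraries. Its summed neutrophil markers were instead the highest of each region: 220 TPM in neocortex, 166 in cerebellum and 131 in hippocampus. The other LLC libraries there lay at 55.4 to 189, 54.9 to 121 and 35.0 to 92.1 TPM. By the mean log2 difference of these markers, LLC replicate 2 was higher in neocortex (1.94 against 1.88). Erythrocyte markers rose in all regions (neocortex 7 of 8 tested, cerebellum 6 of 8, hippocampus 5 of 7), as did endothelial markers (13, 4 and 10 of 14). The summed erythrocyte markers lay at 1391 to 1777 TPM in control and at 3834 to 15418 TPM in LLC neocortex, and the endothelial markers at 335 to 377 TPM and 510 to 741 TPM. Over all genes 5.59%, 1.23% and 2.58% were called higher in neocortex, cerebellum and hippocampus, and 2.95%, 1.27% and 1.03% lower. Counts of called markers thus differ between regions in part because all calls do. Among 13 pan-neuronal markers 6 fell in neocortex, none passed in cerebellum, and 2 fell and 1 rose in hippocampus. Their sum was 6746 to 6855 TPM in control and 5907 to 6572 TPM in LLC neocortex. Of 14 neutrophil markers 8, 7 and 6 could be tested in neocortex, cerebellum and hippocampus, and 5 rose in each. The filter itself depends on that rise. Lcn2, Chil3 and Retnlg averaged 0.19, 0.17 and 0.56 TPM in control and 6.61, 5.86 and 8.86 TPM in LLC neocortex. Their mean thus reached 1 TPM only through the LLC libraries, and the number tested is no independent base. In neocortex 4 of 10 myelin markers fell and 1 rose. Markers of hippocampal neurons were higher in LLC neocortex, where 2 of 5 tested rose, Spink8 (1.05) and Ociad2 (0.35). Their sum was 209 to 226 TPM in control and 235 to 286 TPM in LLC neocortex, with LLC replicate 4 nearest the controls (0.08 on average, against 0.26 to 0.30 in the other 3). Of the astrocyte markers Aqp4 fell in neocortex (-0.65) and cerebellum (-0.87), while Slc1a3 rose in neocortex and Aldoc in each region. Astrocyte markers averaged -0.20 to -0.06, -0.30 to -0.26 and -0.31 to -0.20 in LLC replicates 1 to 3 of neocortex, cerebellum and hippocampus. In replicate 4 they averaged 0.07, -0.03 and 0.13. By summed TPM these markers were not lower on average in neocortex (mean 2276 in control, 2393 in LLC) or cerebellum (4013 and 4022). In hippocampus the means were 2338 and 2333 TPM, and the groups overlapped in each region. Microglia markers averaged -0.38 to -0.17, -0.16 to 0.26 and -0.43 to -0.12 in replicates 1 to 3, and 0.12, 0.04 and 0.18 in replicate 4. None of the markers in these lists was at 0 in all libraries. The part of these shifts in the results was not tested, and in bulk tissue fewer cells of a type and less RNA per cell cannot be told apart.

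The 13 mitochondrial genes held between 20.04% and 27.5% of all TPM in a library, and the 94 nuclear members together 1.89% to 2.24%. Averaged over the 6 groups, mt-Co1, the catalytic subunit of complex IV, had the highest level at 47673 TPM, and mt-Nd6, the only member on the light strand, the lowest mitochondrial level at 313 TPM. The median level was 152 TPM for complex I, 160 for complex II, 256 for complex III, 284 for complex IV and 191 for the ATP synthase. The assembly factors had a median of 37.8 TPM and Cycs a mean of 76.6 TPM. The nuclear subunit with the highest level was Cox8a (1434 TPM), followed across the other complexes by Atp5a1, the catalytic head's alpha subunit (838), Ndufb9 (526), Uqcrh (387) and Sdha (352). Cox8c averaged 0.03 TPM and did not reach the mean of 1 TPM required for testing in any region, and Cox7b2 missed it in neocortex.

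In LLC neocortex a small set of nuclear subunits fell and a single one rose. With limma on log2(TPM + 1) and Benjamini-Hochberg adjustment over all genes, 15 of 105 tested members were lower and 1 higher at an adjusted p under 0.05. Over all genes 8.54% passed, 2.95% as lower and 5.59% as higher, against 15.2% of the members, 14.3% as lower. The 15 were spread over every nuclear complex: Ndufc1, Ndufb2, Ndufa12 and Ndufa1 of complex I, Sdhc of complex II, Uqcrb and Uqcrq of complex III, Cycs, Cox7b, Cox5a, Cox6a2, Cox6b2 and Cox7a1 of complex IV, Atp5e of the ATP synthase, and Ndufaf5. The gene that rose was Ndufa4l2. The median difference of the 92 nuclear members tested was -0.08, against 0.01 over all genes, and 83 of all 105 members lay below 0, against 45.6% of all genes. In 28 members all LLC libraries lay below all controls, and in 2 above, where 6.18% and 10.9% of all genes did so.

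In LLC cerebellum 1 of 106 members fell, Uqcrb, and none rose, against 2.50% of all genes called, 1.27% as lower and 1.23% as higher. At an unadjusted p under 0.05 there were 16 members, or 15.1% of those tested, against 24.4% of all genes. The nuclear median was -0.06 and the all-gene median -0.04, and 73 of 106 members lay below 0, against 58.8% of all genes. Groups were apart with LLC lower in 11 members and higher in 3, against 10.3% and 6.42% of all genes. In LLC hippocampus 7 of 106 members fell and 1 rose, 7.55% against 3.61% of all genes (1.03% as lower and 2.58% as higher). Those that fell were Atp5j2, Cox6a2, Ndufb2, Cycs, Ndufa12, Ndufaf5 and Cox5a, and Ndufa4l2 rose. Here the nuclear median was -0.08, against 0.01 over all genes, and 82 of 106 members lay below 0, against 47.8%. Groups were apart with LLC lower in 20 members and higher in 1, where 4.81% and 8.95% of all genes were. At an unadjusted p under 0.05 there were 48 of 105 members in neocortex and 32 of 106 in hippocampus, against 29.8% and 22.2% of all genes. Sizes were small throughout: apart from Ndufa4l2 and 3 scarce complex IV isoforms, every call was a fall of 0.11 to 0.30 on the log2 scale.

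The counts depended on single libraries. In neocortex 35 calls were made without LLC replicate 4, and 1 to 5 without any 1 of the other 7 libraries. In hippocampus 11 were made without LLC replicate 4 and 0 or 1 without any 1 of the others. In cerebellum 7 were made without LLC replicate 1, 7 without LLC replicate 4 and 0 without any 1 of the others. A fit on 7 libraries also has fewer degrees of freedom than one on 8. Over the same fits the nuclear median lay between -0.09 and -0.07 in neocortex, between -0.09 and -0.06 in hippocampus and between -0.08 and -0.03 in cerebellum.

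**Figure D1:**
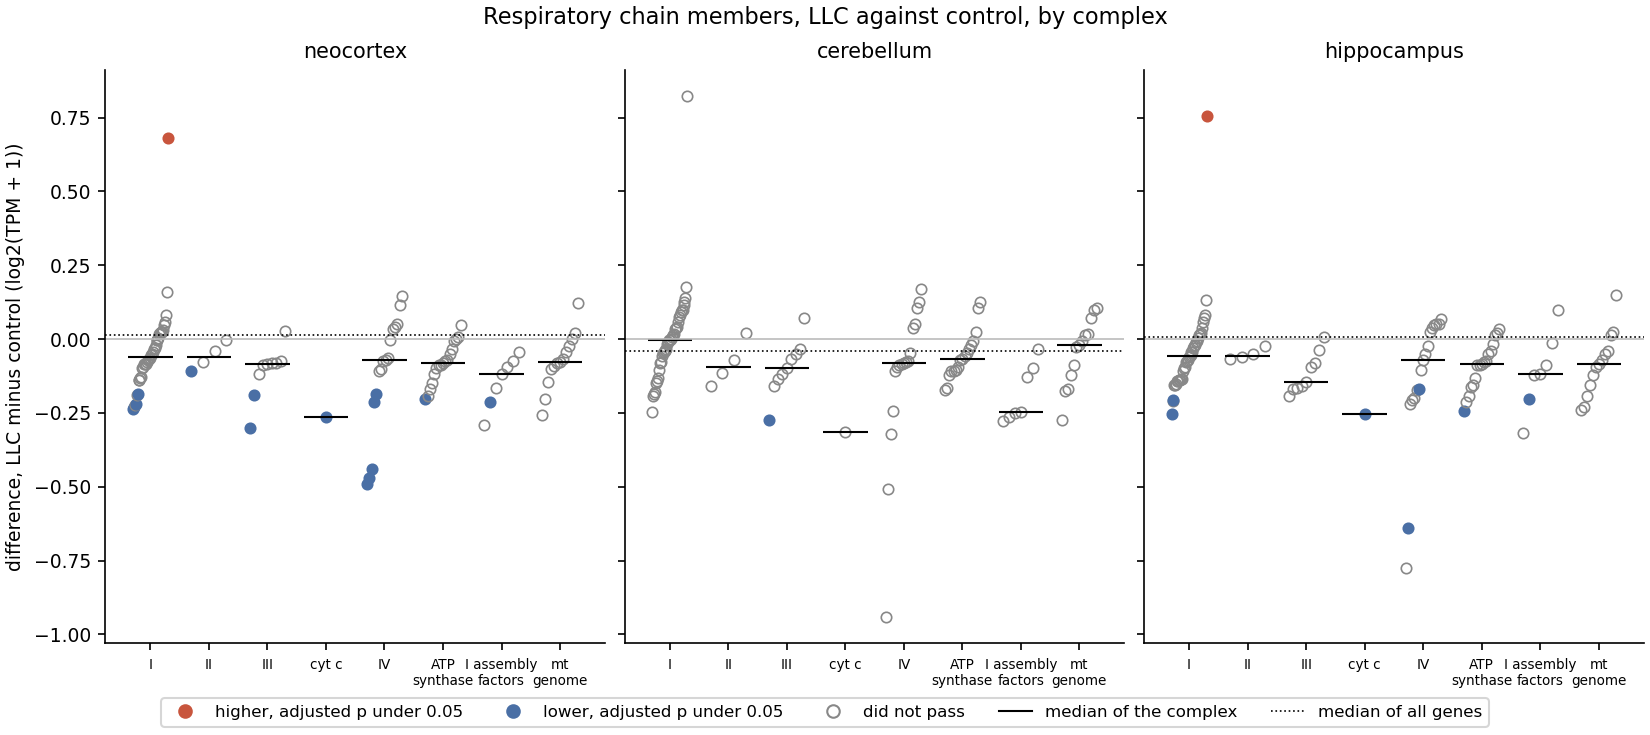
Difference between LLC and control (log2(TPM + 1), y axis) of every tested member in neocortex, cerebellum and hippocampus, grouped by complex on the x axis, 4 libraries a group. Filled points passed an adjusted p under 0.05 (limma), short lines are the median of each complex, and the dotted line is the median of all genes; the complex medians lie between -0.004 and -0.32, and Ndufa4l2 is the highest point in each panel.

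Taking the complexes in the order of electron flow, complex I had 4 of 38 members called lower in neocortex, 0 in cerebellum and 2 in hippocampus. Over all genes 2.95%, 1.27% and 1.03% were called lower in these regions. None of the calls was among the 7 nuclear core subunits, which carry the flavin and the iron-sulfur clusters: their median differences were -0.002, 0.008 and 0.003 in the 3 regions. The 31 accessory members had medians of -0.06, -0.01 and -0.08. Ndufv1, the core subunit that binds NADH, had positive differences of 0.16, 0.10 and 0.13, none of which passed (adjusted p of 0.124, 0.329 and 0.190, limma). Ndufs1, its neighbour in the same arm, lay below all controls in every LLC library of neocortex and cerebellum.

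Ndufb2, an accessory subunit of the membrane arm (GRCm38 chr6:39592574-39603382, plus strand), was lower in LLC libraries of every region. Control neocortex libraries gave 27.8, 27.9, 28.0 and 28.0 TPM and LLC libraries 21.8, 24.8, 22.0 and 26.3 TPM, with no overlap. In cerebellum the controls were at 42.6, 45.4, 43.9 and 45.4 TPM and the LLC libraries at 36.4, 37.4, 34.0 and 41.3 TPM. In hippocampus the values were 31.7, 32.0, 31.1 and 30.7 TPM in control and 25.4, 26.3, 24.8 and 28.4 TPM in LLC libraries. The groups were thus apart in every region, with LLC replicate 4 closest to the controls. The differences were -0.23 (SE 0.06, adjusted p = 0.0425, limma), -0.25 (SE 0.07, adjusted p = 0.0797) and -0.25 (SE 0.05, adjusted p = 0.0349), so that the cerebellar one did not pass. Ndufb2 overlaps the predicted gene Gm42420 on its own strand, and how reads in the overlap were counted is not given in the sources used here.

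Ndufa12, an accessory subunit at the junction of the arms, fell by 0.18 in neocortex (SE 0.05, adjusted p = 0.0452, limma) and by 0.21 in hippocampus (SE 0.04, adjusted p = 0.0391). In hippocampus the LLC libraries lay at 138 to 147 TPM and the controls at 157 to 176 TPM, with no overlap. In neocortex LLC replicate 4, at 150 TPM, reached into the control range of 149 to 158 TPM. Ndufaf5, which modifies a core subunit during assembly, fell in the same regions. Its LLC libraries gave 31.6, 32.5, 33.2 and 36.7 TPM in neocortex against 41.0, 38.3, 38.5 and 37.7 TPM in control. In hippocampus they gave 33.9, 34.1, 34.9 and 34.0 TPM against 41.7, 40.4, 37.7 and 38.8 TPM. The differences were -0.21 (SE 0.05, adjusted p = 0.0369, limma) and -0.20 (SE 0.05, adjusted p = 0.0412), and -0.25 in cerebellum without passing (adjusted p = 0.0854), where the groups did not overlap either. The 7 assembly factors as a group had medians of -0.12, -0.25 and -0.12, with 1, 0 and 1 called lower. Over all genes 2.95%, 1.27% and 1.03% were called lower in neocortex, cerebellum and hippocampus.

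Ndufa4l2, a paralogue of Ndufa4 known as a target of hypoxia signalling (GRCm38 chr10:127514967-127517154, plus strand), was the only member that rose. In neocortex it was at 7.04, 5.36, 6.57 and 5.52 TPM in control and at 11.7, 11.8, 11.7 and 7.09 TPM in LLC libraries. In cerebellum the values were 7.45, 7.64, 7.12 and 6.45 TPM against 18.1, 16.3, 13.6 and 7.96 TPM, and in hippocampus 4.42, 5.12, 5.12 and 3.98 TPM against 9.53, 8.82, 9.26 and 6.69 TPM. Every LLC library lay above every control of its region, and in each region LLC replicate 4 was the lowest of the LLC libraries. The differences were 0.68 (SE 0.15, adjusted p = 0.0261, limma), 0.82 (SE 0.20, adjusted p = 0.0626) and 0.75 (SE 0.12, adjusted p = 0.0171), so that the cerebellar one missed the threshold. Without 1 library at a time the call was kept in 6 of 8 fits in hippocampus and in 2 of 8 in neocortex. Ndufa4 itself did not pass in any region, and Ndufa4l2 went from 1.53% ± 0.20 of the pair's TPM to 2.65% ± 0.49 in neocortex (SD, n = 4), from 1.41% ± 0.07 to 2.77% ± 0.77 in cerebellum and from 1.13% ± 0.17 to 2.08% ± 0.24 in hippocampus. Markers of mural cells, the contractile cells around vessels, moved with it: of 10, 5 rose in neocortex, 3 in hippocampus and 1 in cerebellum. Over all genes 5.59%, 2.58% and 1.23% were called higher in these regions. The sum of the mural markers was 243 to 271 TPM in control and 297 to 366 TPM in LLC neocortex. In cerebellum that sum was 302 to 330 TPM against 326 to 431 TPM, and in hippocampus 199 to 232 TPM against 248 to 294 TPM, with no mural marker at 0 in all libraries. Endothelial and erythrocyte markers rose as well, and like Ndufa4l2 they were lowest among the LLC libraries in replicate 4 of each region. The part of mural, endothelial or blood cells in the rise was not tested. Ndufa4l2 also overlaps Shmt2 on the other strand, and whether counting used the strand is not given in the sources used here.

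In complex II a single call was made among 4 members, Sdhc, a membrane anchor, in neocortex, where 2.95% of all genes were called lower. Its 4 control libraries lay at 72.5 to 73.2 TPM and its LLC libraries at 66.8 to 67.9 TPM, a fall of 0.11 (SE 0.03, adjusted p = 0.0466, limma). The SD was 0.27 TPM in control and 0.46 TPM in LLC libraries. Sdha, the catalytic flavoprotein, lay below all controls in every LLC library of neocortex and hippocampus, by 0.08 and 0.07, without passing (adjusted p of 0.119 and 0.302). All 4 complex II members were below 0 in neocortex and hippocampus and 3 of 4 in cerebellum.

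In neocortex 2.95% of all genes were called lower, and in cerebellum 1.27%. Complex III, with 9 members, held 2 of the members' falls in neocortex and the only fall in cerebellum. Uqcrb, the ubiquinone-binding accessory subunit (GRCm38 chr13:66900617-66905378, minus strand), was at 250, 230, 238 and 244 TPM in control neocortex and at 190, 198, 185 and 208 TPM in LLC neocortex. In cerebellum it was at 309, 298, 289 and 287 TPM against 243, 250, 231 and 252 TPM. No LLC library of these regions reached a control. In hippocampus the controls were at 249, 253, 229 and 254 TPM and the LLC libraries at 208, 229, 233 and 209 TPM, and the groups overlapped. The differences were -0.30 (SE 0.04, adjusted p = 0.00668, limma), -0.28 (SE 0.05, adjusted p = 0.0377) and -0.17 (SE 0.05, adjusted p = 0.109). In neocortex Uqcrb passed under all 19 alternative settings, with adjusted p-values of 0.000292 to 0.0297, and in cerebellum under 11 of 19.

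Uqcrq, a small accessory subunit, also fell in neocortex, from 115 to 121 TPM in control to 100 to 108 TPM in LLC libraries (-0.19, SE 0.03, adjusted p = 0.0157, limma). Uqcrc1, a core protein of the matrix side, had differences of 0.03, 0.07 and 0.01, with adjusted p-values of 0.702, 0.460 and 0.936. The complex III share of the nuclear members' TPM, which a scaling factor per library cannot change, was 11.3% ± 0.08 in control and 10.9% ± 0.22 in LLC neocortex (SD, n = 4), with no overlap. It was 12.1% ± 0.09 against 11.6% ± 0.23 in cerebellum, again without overlap, and 11.7% ± 0.09 against 11.2% ± 0.35 in hippocampus, where LLC replicate 4 reached the controls. No share was tested, since its members were chosen with these results known.

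**Figure D2:**
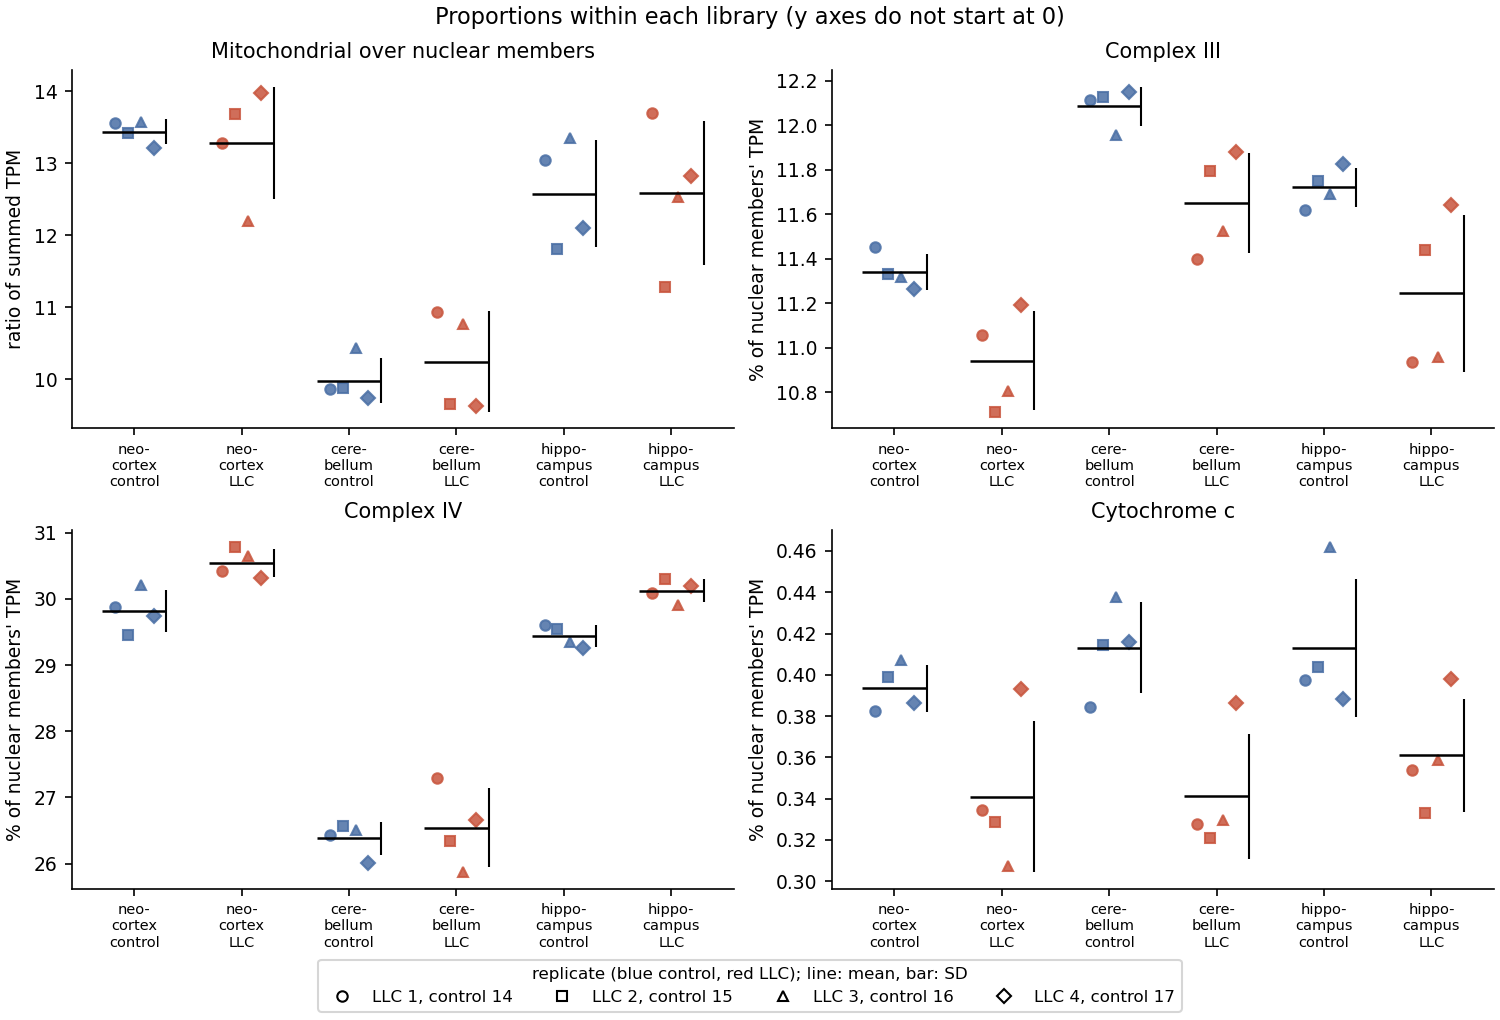
Proportions within each of the 24 libraries: the summed TPM of the mitochondrial genome over that of the nuclear members (ratio), and the shares of complex III, complex IV and cytochrome c in the nuclear members' TPM (percent), by region and treatment. Points are libraries, lines means and bars SD (n = 4), on y axes that do not start at 0; the ratio is lowest in cerebellum, and the complex III and cytochrome c means are lower in LLC than in control in each region.

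Cycs (GRCm38 chr6:50562563-50566538, minus strand), the soluble carrier between complexes III and IV, which also triggers the apoptosome when released, fell in neocortex and hippocampus. Its control neocortex libraries were at 77.6, 80.4, 82.1 and 78.8 TPM and its LLC libraries at 63.9, 64.1, 61.4 and 76.2 TPM. In cerebellum the values were 86.1, 88.9, 92.8 and 86.7 TPM against 73.5, 66.7, 64.0 and 81.0 TPM, and in hippocampus 81.5, 84.4, 88.8 and 79.7 TPM against 66.9, 66.7, 71.2 and 75.2 TPM. LLC and control libraries did not overlap in any region, and LLC replicate 4 was the highest LLC library in each. The differences were -0.26 (SE 0.06, adjusted p = 0.0328, limma), -0.32 (SE 0.08, adjusted p = 0.0613) and -0.25 (SE 0.05, adjusted p = 0.0353). The cerebellar difference passed once LLC replicate 4 was left out, and also once LLC replicate 1 was.

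Nuclear genes of the respiratory chain are known targets of NRF1, of GABP and of CREB, and the sequences before the members' starts were searched for short forms of their sites. RefSeq (GRCm38.p6) gave an entry for 74 of the 94 nuclear members. In the 250 bases before the start, on either strand, the NRF1 core CGCATGCG occurred in 9 of 74 members (12.2%) and in 1.75% of 27025 genes. The cAMP response element TGACGTCA occurred in 5 members (6.76%) and 1.77% of genes, and the GABP core CCGGAAG in 13 (17.6%) and 7.83% of genes. Of the 6 members that fell in both neocortex and hippocampus 5 had an entry. Cycs (chr6:50566570-50566819, minus strand) held a cAMP response element and an NRF1 core, and Ndufb2 (chr6:39592315-39592564, plus strand) a cAMP response element. They are shown because they are the pair among these 5 with a match, 5′ to 3′, with the matches in capitals:
Cycs: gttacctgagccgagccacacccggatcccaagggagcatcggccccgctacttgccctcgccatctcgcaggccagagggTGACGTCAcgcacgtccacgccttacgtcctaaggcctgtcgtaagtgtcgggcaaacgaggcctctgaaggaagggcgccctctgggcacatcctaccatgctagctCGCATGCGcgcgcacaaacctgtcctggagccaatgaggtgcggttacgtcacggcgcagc
Ndufb2: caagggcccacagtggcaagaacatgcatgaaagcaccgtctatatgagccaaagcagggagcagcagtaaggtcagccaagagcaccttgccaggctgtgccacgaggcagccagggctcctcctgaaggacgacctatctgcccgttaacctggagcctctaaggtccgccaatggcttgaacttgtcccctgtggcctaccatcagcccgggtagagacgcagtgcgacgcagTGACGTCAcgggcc
The windows of Cox5a, Ndufa12 and Ndufaf5 held none of these letters. A match describes the letters of the window and says nothing about binding in these tissues. The 14 regulators of mitochondrial biogenesis, among them the coactivators Ppargc1a and Ppargc1b and the factors Nrf1 and Gabpa, gave 1 call in neocortex, the coactivator Pprc1 (9.72 ± 0.64 TPM in control, 8.11 ± 0.33 in LLC, -0.23, SE 0.06, adjusted p = 0.0404, limma), and 0 in the other regions. Over all genes 8.54% were called in neocortex, 2.50% in cerebellum and 3.61% in hippocampus, so that 1 of 14 does not set these regulators apart.

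**Figure D3:**
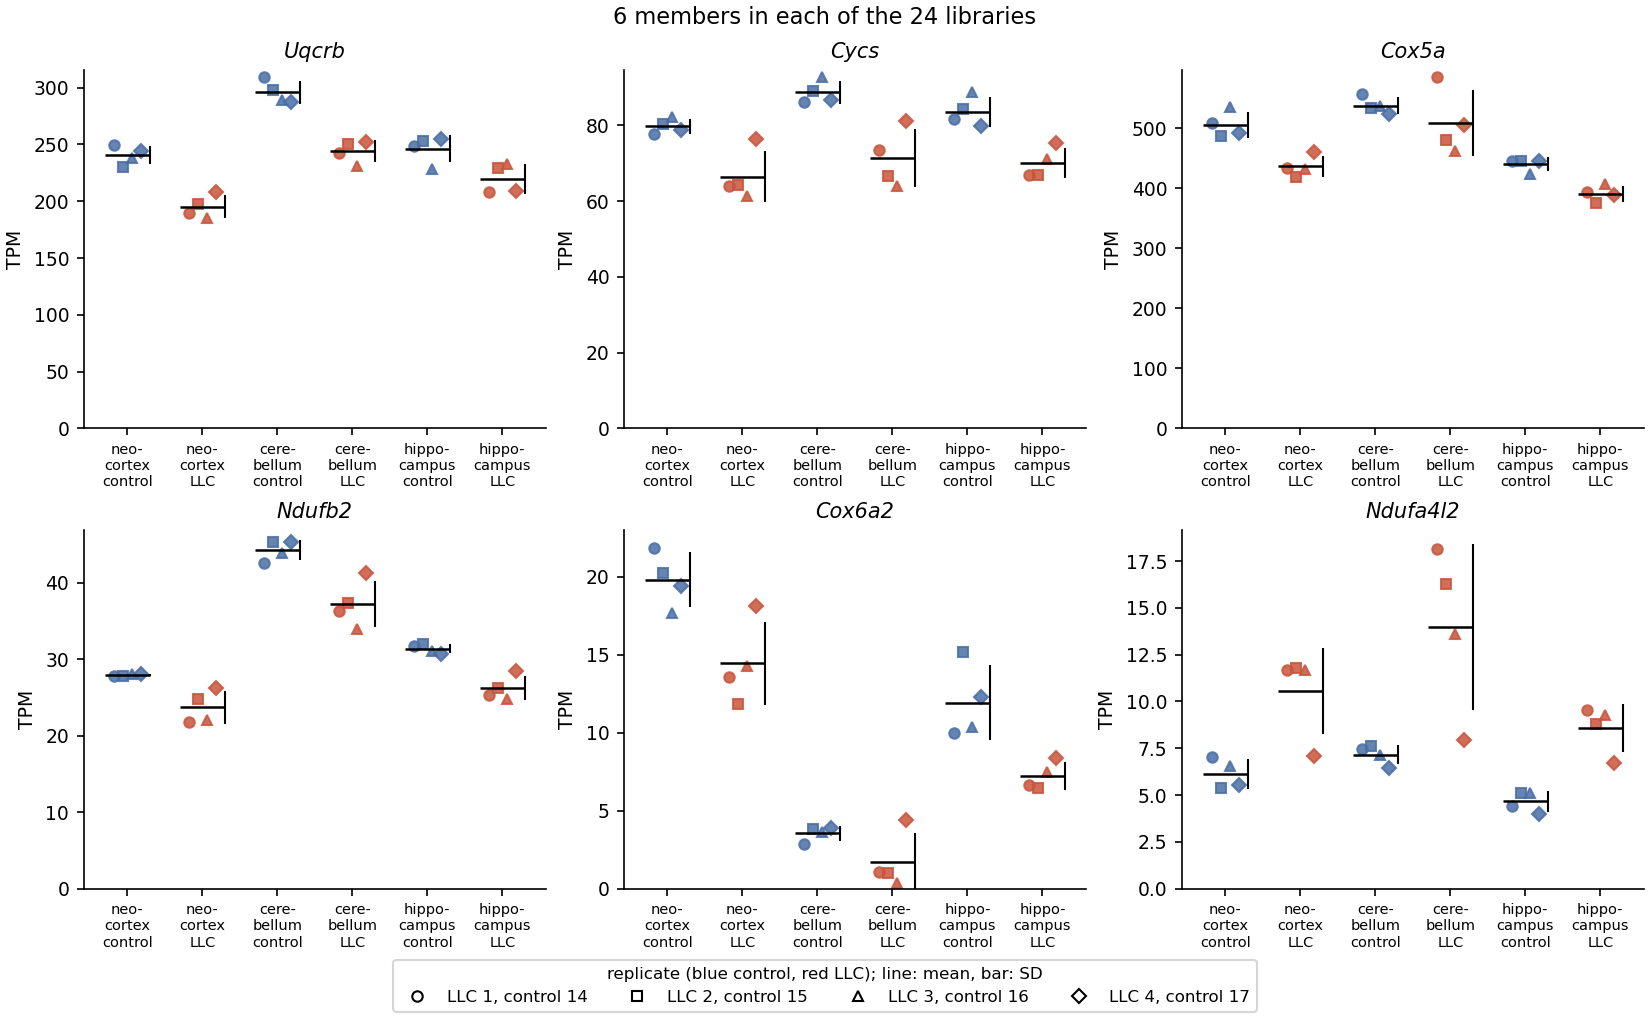
TPM (y axis, from 0) of Uqcrb, Cycs, Cox5a, Ndufb2, Cox6a2 and Ndufa4l2 in each of the 24 libraries, by region and treatment. Points are libraries, lines means and bars SD (n = 4, bars end at 0); for Cycs and Ndufb2 the LLC libraries lie below the controls in each region and for Ndufa4l2 above them.

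Over all genes 2.95% were called lower in neocortex and 1.03% in hippocampus. Complex IV, with 18 members, contributed 5 of the 15 falls in neocortex and 2 of the 7 in hippocampus. Among its abundant subunits, Cox5a, a matrix-side subunit (GRCm38 chr9:57521274-57532426, plus strand), was at 509, 488, 535 and 492 TPM in control and at 434, 419, 432 and 461 TPM in LLC neocortex. In hippocampus it was at 446, 446, 424 and 446 TPM against 394, 375, 408 and 388 TPM, so that the groups were apart in both regions. The differences were -0.21 (SE 0.04, adjusted p = 0.0203, limma) and -0.17 (SE 0.04, adjusted p = 0.0452). In cerebellum LLC replicate 1 had the highest value of that region at 587 TPM and the difference was -0.09 (adjusted p = 0.502, limma). Cox7b fell in neocortex from 269 to 290 TPM in control to 239 to 255 TPM in LLC libraries (-0.19, SE 0.04, adjusted p = 0.0185, limma).

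The abundant forms Cox4i1, Cox6a1 and Cox8a did not pass in any region. Cox4i1, which joins the mitochondrial core early in assembly, lay above all controls in all 4 LLC libraries of neocortex (704 to 752 TPM in control, 763 to 821 in LLC, 0.12, SE 0.04, adjusted p = 0.0744, limma). The complex IV share of the nuclear members' TPM was 29.8% ± 0.32 in control and 30.5% ± 0.22 in LLC neocortex, and 29.4% ± 0.17 against 30.1% ± 0.17 in hippocampus, with no overlap in either region. In cerebellum the shares were 26.4% ± 0.25 and 26.5% ± 0.60.

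The scarce isoforms had the largest falls. Cox6a2, the heart and muscle form of Cox6a (GRCm38 chr7:128205435-128206387, minus strand), was at 21.9, 20.3, 17.7 and 19.4 TPM in control and at 13.6, 11.9, 14.3 and 18.2 TPM in LLC neocortex, where LLC replicate 4 lay inside the control range. In hippocampus it was at 9.96, 15.2, 10.4 and 12.3 TPM against 6.62, 6.44, 7.49 and 8.37 TPM, without overlap. In cerebellum 3 LLC libraries were at 1.08, 1.02 and 0.351 TPM and replicate 4 at 4.40 TPM, above the 2.86 to 3.89 TPM of the controls. The differences were -0.44 (SE 0.11, adjusted p = 0.0401, limma), -0.64 (SE 0.13, adjusted p = 0.0315) and -0.94 (SE 0.35, adjusted p = 0.143, not passing). In neocortex the call ended without any 1 of 7 of the 8 libraries, with adjusted p-values of up to 0.344 over all alternatives. Cox6a2 overlaps Itgad on the other strand.

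Cox7a1, the muscle form of Cox7a, and Cox6b2, the testis form of Cox6b, fell in neocortex from means of 5.41 ± 0.80 and 4.45 ± 1.03 TPM to 3.65 ± 0.79 and 2.84 ± 0.42 TPM (SD, n = 4). Their differences of -0.47 (SE 0.13, adjusted p = 0.0490, limma) and -0.49 (SE 0.13, adjusted p = 0.0488) stood just inside the threshold, and their groups overlapped. In cerebellum, where both are at higher levels, their differences were -0.51 and -0.32 with adjusted p-values of 0.189 and 0.277. The LLC libraries there were split: Cox7a1 was at 8.11 and 9.96 TPM in replicates 1 and 3 and at 14.6 and 19.4 TPM in replicates 2 and 4, against 16.6 to 19.6 TPM in control. Cox4i2, the form induced by low oxygen, differed by 0.15, 0.17 and 0.05 and did not pass (adjusted p of 0.381, 0.424 and 0.873). Cox8b, another muscle form, did not pass in any region. In hippocampus it was at 6.43, 3.74, 1.62 and 13.5 TPM in control and at 2.14, 12.7, 0.198 and 2.02 TPM in LLC libraries. The 6 choroid plexus markers moved with it, with sums of 2571, 103, 51.7 and 4085 TPM in the same control libraries and of 60.2, 7436, 54.6 and 122 TPM in the LLC ones. The same 3 libraries, control replicates 14 and 17 and LLC replicate 2, were thus the highest in both, and no choroid plexus marker was at 0 in all libraries. The part of these cells in the Cox8b values was not tested. Of the 7 skeletal and smooth muscle markers 2 or 3 were high enough to test in a region and 0 passed, and their sum was 13.7 to 17.9 TPM in control and 14.3 to 17.3 TPM in LLC neocortex.

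**Figure D4:**
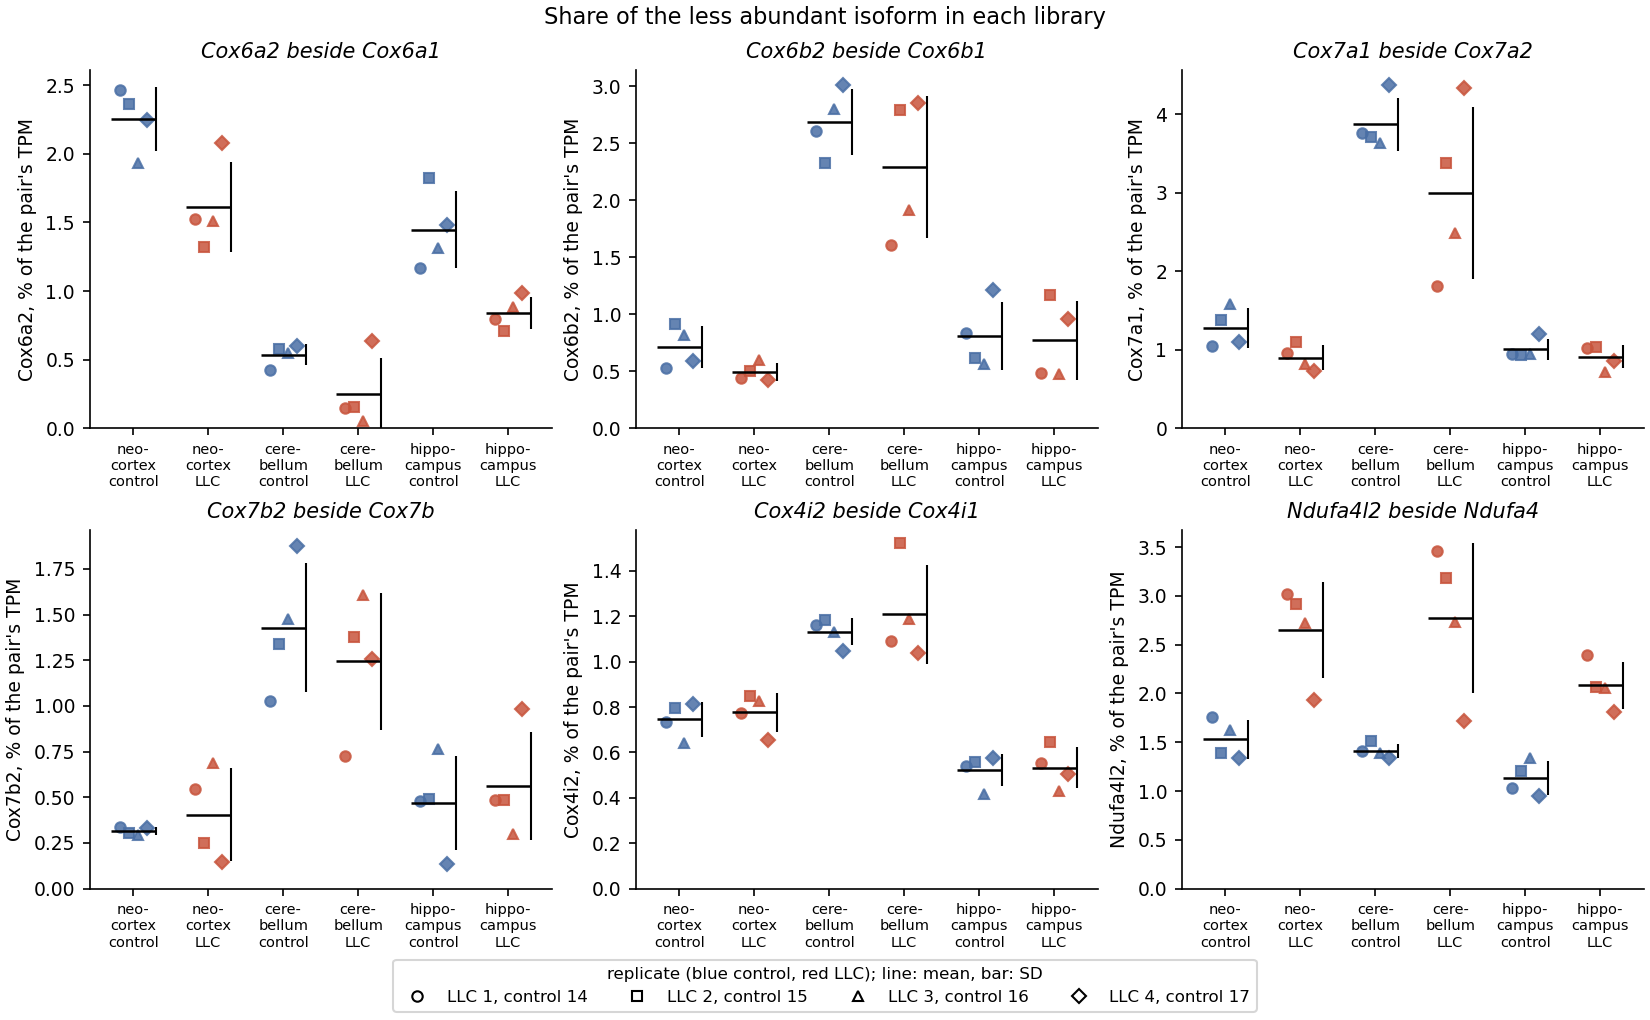
Share of the less abundant isoform in the summed TPM of an isoform pair (percent, y axis from 0) for Cox6a2, Cox6b2, Cox7a1, Cox7b2, Cox4i2 and Ndufa4l2 in each of the 24 libraries. Points are libraries, lines means and bars SD (n = 4, bars end at 0); Cox6b2, Cox7a1, Cox7b2 and Cox4i2 have their highest control means in cerebellum, Cox6a2 its lowest, and Ndufa4l2 is higher in LLC in each region.

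The ATP synthase had 1 of 17 members called in neocortex, Atp5e, the epsilon subunit of the central stalk (97.0 to 105 TPM in control, 79.6 to 93.8 in LLC, -0.20, SE 0.06, adjusted p = 0.0497, limma). In hippocampus the call was Atp5j2, subunit f of the membrane part. Over all genes 2.95% were called lower in neocortex and 1.03% in hippocampus, so that 1 of 17 does not set the ATP synthase apart. For Atp5j2 the values in hippocampus were as follows. Its controls were at 212, 212, 204 and 207 TPM and its LLC libraries at 163, 188, 173 and 180 TPM, a fall of 0.24 (SE 0.05, adjusted p = 0.0299, limma). In neocortex the same gene fell short at -0.19 (adjusted p = 0.0515, limma). Of the subunits that form the catalytic head, alpha (Atp5a1) differed by 0.00, -0.02 and 0.02, with adjusted p-values of 0.998, 0.814 and 0.818 (limma). Beta (Atp5b), which holds the catalytic sites, differed by -0.09, -0.11 and -0.07 without passing (adjusted p of 0.174, 0.267 and 0.249, limma), and its LLC libraries lay below all controls in neocortex and hippocampus. In each region 14 of the 17 members were below 0, with medians of -0.08, -0.07 and -0.09.

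No mitochondrially encoded member passed in any region with limma, and 4, 1 and 2 of the 13 had an unadjusted p under 0.05. Mt-Co1 was at 53647 to 55332 TPM in control and at 49808 to 56522 TPM in LLC neocortex, and differed by -0.05, 0.01 and -0.05 in the 3 regions. The largest differences in neocortex were those of mt-Atp8, at -0.26 (adjusted p = 0.149, limma), and mt-Nd2, at -0.20. Mt-Nd5 was positive in each region, at 0.12, 0.10 and 0.15. The ratio of mitochondrial to nuclear summed TPM was 13.4 ± 0.17 in control and 13.3 ± 0.78 in LLC neocortex, 9.98 ± 0.31 against 10.2 ± 0.70 in cerebellum and 12.6 ± 0.74 against 12.6 ± 1.00 in hippocampus (SD, n = 4). The groups overlapped in each region, and the LLC libraries were more spread than the controls.

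The regions were then compared in their response. Of 105 members tested in all 3 regions, 66 had a difference below 0 in each (62.9%) and 15 above 0 in each (14.3%), against 30.4% and 27.4% of the 13633 genes tested in all 3. In total, 17 members passed in at least 1 region and 90 in none. The 6 that fell in both neocortex and hippocampus (Cox5a, Cox6a2, Cycs, Ndufa12, Ndufaf5 and Ndufb2) made up 40.0% of the neocortical and 85.7% of the hippocampal falls. Over all genes 60 fell in both, 14.02% of the 428 neocortical and 39.7% of the 151 hippocampal falls. Libraries of the same number deviated together between regions (correlation over 0.1) in 8 of 12 LLC and 8 of 12 control pairs. LLC replicate 4 did so most, at 0.456 to 0.625. If a number marks 1 animal, which no label states, the regions are not separate samples, and falls shared by regions are not independent. Whether the LLC effect itself differed between regions was tested as an interaction with limma, which took all 24 libraries as independent. No member passed for cerebellum minus neocortex, hippocampus minus neocortex or hippocampus minus cerebellum. At an unadjusted p under 0.05 there were 1, 0 and 5 of 106 members, against 12.7%, 1.99% and 12.4% of all genes, and 0.612%, 0.00% and 0.128% of all genes passed after adjustment. Ndufaf1, a complex I assembly factor, had the smallest p, with 0.26 for hippocampus minus cerebellum (SE 0.08, adjusted p = 0.161, limma). A call in a single region, such as Uqcrq in neocortex, was not shown to be particular to it.

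Among genes that assemble, regulate or feed the chain, calls were made mainly in neocortex, except for the glycolytic genes. Neocortex also had the largest share of calls over all genes, 8.54% against 2.50% in cerebellum and 3.61% in hippocampus. Of the 22 tested assembly genes of complex IV outside the members, 0, 1 and 0 passed in neocortex, cerebellum and hippocampus. That gene was Coa6, a copper-delivery factor (42.1 ± 1.21 TPM in control, 31.5 ± 2.57 in LLC, -0.41, SE 0.07, adjusted p = 0.0266, limma). In neocortex the complex III assembly genes Bcs1l (-0.41) and Ttc19 (-0.13) fell, 2 of 6, and so did Tmem70 (-0.20), 1 of 3 ATP synthase assembly genes, where 8.54% of all genes were called. None of the 10 genes of mitochondrial DNA transcription and replication, the 8 other complex I assembly genes or the 4 of complex II passed in any region.

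Among 24 genes of the tricarboxylic acid cycle and pyruvate dehydrogenase, Idh2 (0.40) and Pdk2 (0.28) rose in neocortex and 3 fell, among them the pyruvate dehydrogenase subunits Pdhb (-0.17) and Pdha1 (-0.14). These 5 were 20.8% of the list, against 8.54% of all genes. None passed in the other regions. Of 12 genes of ADP and phosphate exchange, the uncoupling protein genes Ucp2 (0.64) and Slc25a27 (0.21) rose in neocortex and mitochondrial creatine kinase Ckmt1 fell (-0.27), together 25.0% of the list. In hippocampus Slc25a14 fell (-0.23), 8.33% of the list against 3.61% of all genes. Of 17 glycolytic genes Aldoc, the brain aldolase, rose in neocortex (0.30), cerebellum (0.30) and hippocampus (0.31), and Gpi1 rose in neocortex (0.34) and hippocampus (0.29). Over all genes 5.59%, 1.23% and 2.58% were called higher in neocortex, cerebellum and hippocampus. The median of the glycolytic genes was 0.07, 0.14 and 0.05 in the same order.

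The regions were also compared among the controls. In control cerebellum against control neocortex 51 of 106 members were higher and 27 lower, 73.6% against 84.6% of all genes (60.0% higher and 24.6% lower), with limma over the 12 control libraries. That split belongs to TPM as deposited, under which the median gene was higher by 0.30 in cerebellum, and the 93 nuclear members by 0.15. With median-ratio scaling 10 members were higher and 72 lower, with TPM rescaled without mitochondrial and haemoglobin genes 37 and 37, and with GC and length trends removed 25 and 55. Hippocampus against neocortex gave 12 higher and 17 lower, 27.4% against 61.5% of all genes, where 40.3% were higher and 21.2% lower. The split was otherwise 5 and 44 (median-ratio scaling), 8 and 24 (rescaled), 6 and 41 (trends removed) and 12 and 10 (quantile normalization), and the medians were 0.01 for the nuclear members and 0.08 for all genes. Hippocampus against cerebellum gave 25 higher and 48 lower, 68.9% against 83.0% (27.4% higher and 55.6% lower), with medians of -0.13 and -0.23. The split was otherwise 56 and 19 (median-ratio scaling), 38 and 39 (rescaled) and 46 and 38 (trends removed). On the TPM scale the nuclear members' median was thus higher in cerebellum, and relative to the median gene it was lower.

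Proportions within a library do not change with a scaling factor. The mitochondrial to nuclear ratio was lowest in cerebellum, where control libraries lay at 9.74 to 10.4, against 11.8 to 13.4 in hippocampus and 13.2 to 13.6 in neocortex, so that cerebellum was apart from both while hippocampus and neocortex overlapped. On the TPM scale all 13 mitochondrial genes were lower in cerebellum than in neocortex, from -0.18 for mt-Nd2 to -0.80 for mt-Nd6, and higher in hippocampus than in cerebellum. With quantile normalization, which fixes the values of the top ranks, mt-Atp6, mt-Nd2 and mt-Nd3 turned to the other sign in the former comparison and mt-Atp6, mt-Atp8, mt-Nd1 and mt-Nd3 in the latter. Complex IV made up 26.4% ± 0.25 of the nuclear members' TPM in control cerebellum, 29.8% ± 0.32 in neocortex and 29.4% ± 0.17 in hippocampus (SD, n = 4). The ATP synthase share ran from 24.7% to 25.3%, from 23.2% to 23.7% and from 22.9% to 23.3% in the same order, and that of complex II 4.03% ± 0.05, 3.55% ± 0.04 and 3.52% ± 0.08. For these 3 complexes no cerebellar library overlapped those of the other regions.

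The isoforms of complex IV set the cerebellum apart. Cox6a2 was at 3.54 ± 0.47 TPM in cerebellum, 11.9 ± 2.38 in hippocampus and 19.8 ± 1.75 in neocortex, with a difference of -2.20 between cerebellum and neocortex (SE 0.12, adjusted p = 2.71e-10, limma). Cox6b2, Cox7a1 and Cox7b2 were instead highest in cerebellum, with means of 16.3, 18.04 and 4.48 TPM against 4.45, 5.41 and 0.895 TPM in neocortex and 5.11, 4.27 and 1.31 TPM in hippocampus. Their differences between cerebellum and neocortex were 1.68, 1.57 and 1.52. Neocortex and hippocampus overlapped for Cox6b2 and Cox7b2, whose differences of 0.13 and 0.23 did not pass (adjusted p of 0.566 and 0.296, limma), while Cox7a1 was lower in hippocampus than in neocortex (-0.28, adjusted p = 0.0258). As a share of the isoform pair, Cox6a2 made up 2.25% ± 0.23 in neocortex, 1.45% ± 0.28 in hippocampus and 0.54% ± 0.08 in cerebellum, and Cox7a1 1.28% ± 0.25, 1.01% ± 0.13 and 3.87% ± 0.34. The widely expressed partners Cox6b1 and Cox7a2 did not pass in any of the 3 region comparisons on the TPM scale. Cox6a1, the partner of Cox6a2, passed in each: cerebellum lay below neocortex (-0.39), hippocampus above cerebellum (0.31) and hippocampus below neocortex (-0.08), the last of which turned to 0.013 with quantile normalization. Cox7b, the partner of Cox7b2, was higher in cerebellum than in neocortex (0.15) and lower in hippocampus than in cerebellum (-0.14), and both signs turned with median-ratio scaling and with GC and length trends removed. None of the signs of Cox6a2, Cox6b2, Cox7a1 and Cox7b2 between cerebellum and the other regions turned under any alternative setting.

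Within the other complexes, the largest rises in cerebellum over neocortex were those of Ndufb2 (0.65; 44.3 against 27.9 TPM), Sdhc (0.45; SE 0.04), Cyc1, the cytochrome c1 subunit of complex III (0.37; 395 against 304 TPM), and Atp5sl (0.55). The largest falls were those of Ndufb9 (-0.38; 428 against 555 TPM), Sdhb (-0.16), Uqcr11 (-0.16) and Atp5k (-0.17). These 8 signs were the same under all scalings run.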

How the data were processed

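RNA-seq of the neocortex, cerebellum and hippocampus was analysed in 24 libraries, 4 in each of 6 groups. Per the labels' protocols RNA was taken with Trizol and made into stranded poly(A) libraries for a NovaSeq. The authors deposited 1 table of TPM by gene symbol, made on mm10 per the submitters' processing notes. The sources used here give no aligner, counting tool, strand setting or annotation. Depth is unknown, since TPM keeps none, so no counting intervals are given and the number of libraries limits the precision.

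Values were taken as log2(TPM + 1), which understates changes of low genes, for genes with a mean of at least 1 TPM over the libraries of a fit. LLC was compared with control within a region (8 libraries), regions within the 12 controls, and LLC effects between regions by an interaction over all 24 libraries. All p-values come from limma 3.58.1 (lmFit, then eBayes with trend) in R 4.3.3, two-sided, with Benjamini-Hochberg adjustment over all genes tested and a threshold of 0.05. They measure the spread between these libraries, which the labels call biological replicates. No 2 libraries were identical. The fits were tested on simulated data. Control libraries of the same title number deviated together between neocortex and cerebellum (all 4 correlations over 0.1), and a fit with that number as a block gave 81 calls against 78. No other comparison met that rule for all its pairs.

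Members and lists were chosen with earlier results of these data known. Values are named for members passing an LLC comparison (at most 8 in a direction by p), the largest rise and fall in each complex between regions, 1 or 2 core subunits per complex, the isoform sets, the mitochondrial genes, and up to 4 passing genes of each list. Ndufa1, Atp5e and Ndufaf1 were singled out after their values were seen. The separate result of 1 marker gene is not reported here. Coordinates and overlaps are GENCODE's on GRCm38, which matched 105 members once; 18 overlap a gene on the same strand and 34 on the other. Alternatives were another pseudocount, other filters, scalings, GC and length correction, weights, a robust fit, all libraries in 1 fit, a replicate block and leaving out each library.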

Additional observations from a re-analysis of the deposited data

Results flagged for a closer look

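Sets of 4 libraries were searched for a library far from the other 3 (216 sets, of which chance alone gives about 1 in 20), and 6 values stood out. In control hippocampus, replicate 16 was low in the summed TPM of complex I (5826 against 6333 to 6390), in Cox5a (424 TPM against 446 in each of the others) and in Cox7b (264 TPM against 288 to 292). In LLC cerebellum, replicate 1 was high in the summed TPM of all members (267409 against 221177 to 228696). Ndufa4l2 was low in LLC neocortex replicate 4, at 7.09 TPM against 11.7 to 11.8. Cox8b was high in LLC hippocampus replicate 2, at 12.7 TPM against 0.198 to 2.14. In that library the choroid plexus markers differed from the control mean by 2.13 on average (log2(TPM + 1)), against -1.52 to -1.11 in the other hippocampal LLC libraries, and their part was not tested.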

How the results depend on the processing

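The count of members called changed with the settings. Neocortex gave 16 calls, and 5 with no filter on low values, 35 with GC and length trends removed, 43 with library weights, 7 with all 24 libraries in 1 fit, 8 with the replicate block, and 1 to 35 when a library was left out. Cerebellum gave 1 call, and 0 with no filter, 0 with GC and length trends removed, 33 with weights, 18 with all 24 libraries, 2 with the replicate block, and 0 to 7 without a library. Hippocampus gave 8 calls, and 1 with no filter, 14 with weights, 1 with the replicate block, and 0 to 11 without a library. The nuclear median stayed below 0 under every alternative run, between -0.12 and -0.07, -0.09 and -0.02, and -0.09 and -0.06 in the 3 regions.

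Control hippocampus against neocortex gave 29 calls, and 49 with median-ratio scaling, 47 with trends removed and 15 with all 24 libraries. The difference of the LLC effect gave 0 calls, but 4 for cerebellum minus neocortex and 1 for hippocampus minus cerebellum with weights, and 1 in each without cerebellar LLC replicate 4. The replicate block rests on numbers that may not pair animals: LLC and control libraries of the same number correlated over 0.1 in 5 of 12 pairs.

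Signs of named genes that passed turned only between control regions. For cerebellum against neocortex median-ratio scaling gave Cycs -0.17, Ndufv1 -0.20, Sdha -0.015, Uqcrc1 -0.17, Atp5a1 -0.11, Atp5b -0.049 and Cox7b -0.17. Trends removed gave Cycs -0.12, Ndufv1 -0.061, Uqcrc1 -0.055 and Cox7b -0.10, and quantile normalization Cycs -0.021, Cox8a 0.055, mt-Atp6 0.016, mt-Nd2 0.066 and mt-Nd3 0.12. For hippocampus against neocortex Sdhd became -0.0029 (median-ratio), and Atp5a1 0.0053, Atp5b 0.024 and Cox6a1 0.013 (quantile). For hippocampus against cerebellum Ndufv1 became 0.052, Uqcrc1 0.0028 and Cox7b 0.082 (median-ratio), Cox7b 0.038 (trends removed), and mt-Atp6 -0.016, mt-Atp8 -0.028, mt-Nd1 -0.025 and mt-Nd3 -0.040 (quantile). Of 7521 values of named genes over all alternatives 7035 counted as unchanged. Where the gene had passed, these kept direction and still passed. Where it had not, they still did not pass and moved by no more than the replicate spread, whatever their sign. Of the rest, 281 no longer passed, 105 newly passed and 72 that had not passed moved by more than that spread. The other 28 belonged to genes that had passed, and turned sign. The causes were not tested. Depth, which TPM does not keep, limits the scarce isoforms in an unknown way.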
